A study of Caenorhabditis elegans with 4 samples.

Results

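The NHR-23 binding regions described here are the 544 peaks whose midpoints lie in the outer parts of the 5 autosomes of Caenorhabditis elegans, out of 928 peaks in the combined list of the study. Members were chosen by position alone: a peak on I, II, III, IV or V was kept where its midpoint lay below the first or at or beyond the second of 2 boundaries that cut the chromosome's span into 3 equal parts. The span of a chromosome is the stretch from base 1 to the last base that any of the 3 peak lists reached. The other autosomal peaks, 224 in number, lie in the central parts, and 160 peaks lie on X. The left outer parts held 283 peaks and the right outer parts 261; they are called left and right arms below, by length only, since the boundaries were not taken from a genetic map.

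The peaks come from chromatin immunoprecipitation followed by sequencing (ChIP-seq) in hermaphrodites at the second larval stage, L2, of the strain OP43, grown at 20 °C. All 4 samples share 1 genotype: the mutation unc-119(ed3) and the transgene wgIs43, introduced by bombardment, which supplies NHR-23 fused to the tags TY1, EGFP and FLAG together with a copy of unc-119. Chromatin was crosslinked with 2% formaldehyde, and only the tagged protein was recovered, so any untagged NHR-23 was not seen. There were 2 ChIP samples, recovered with goat antibodies against GFP, and 2 input DNA samples; neither worms without the tag nor another stage were among them. Whether the replicates were separate cultures is not stated in the labels. Peaks were called with PeakSeq, which scores a ChIP library against control DNA, and coordinates are on WormBase WS180, per the file headers. Each peak carries 1 q-value, the caller's false discovery estimate, which is the authors' value and is used here only to rank and describe peaks: rank 1 is the smallest q-value. The list of ChIP replicate 1 held 48 peaks and that of replicate 2 held 918, and read depth is unknown from the files, so the precision of a peak cannot be given in reads. Peaks of 1 list are not replicates of each other; intervals below are exact (Clopper-Pearson) 95% intervals and cover counting error only, and differences between arms and centres were not tested.

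NHR-23 is a nuclear hormone receptor, the worm ortholog of the mammalian ROR receptors, and a DNA-binding transcription factor. It is known to act in the epidermis in each larval stage, where its level rises and falls with the molting cycle, and worms that lack it fail to molt and to build a normal cuticle. Worm autosomes have no single centromere. Their arms are known for frequent meiotic recombination, for repeats and for histone H3 lysine 9 methylation at the nuclear periphery, and their centres for low recombination and a larger share of conserved and broadly expressed genes. No gene is named beside a peak, because the gene table used here is on another genome build (WBcel235).

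The outer parts held somewhat more NHR-23 peaks than their length alone would give, and the excess lay among the weaker calls. Of the 768 autosomal peaks, 544 were outer, which is 70.8% (95% interval 67.5 to 74%), where the outer parts are 66.7% of the spans by construction. That is 9.94 peaks per Mb, against 8.18 per Mb in the central parts. The replicate lists gave similar shares: 533 of 754 autosomal peaks in replicate 2 (70.7%, interval 67.3 to 73.9%) and 26 of 37 in replicate 1 (70.3%, interval 53 to 84.1%). Most combined peaks are replicate 2 peaks, so these are not 3 independent measurements. With each run of peaks less than 10 kb apart counted once, the share was 70.6% (interval 66.7 to 74.2%). By chromosome it was 77.7% on IV, 73.9% on I, 71.5% on II, 68% on III and 65.2% on V. Only on I and IV did the interval exclude the length share. On V the outer parts held 8.48 peaks per Mb and the centre 9.05. The pooled share was 69.9% without I (interval 66 to 73.6%) and 69.7% without IV (interval 66 to 73.2%). Both intervals take in 66.7%.

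Split by rank, the outer share was close to the length share among strong peaks and above it among weak ones. Ranks 1 to 400 held 320 autosomal peaks, 209 of them outer (65.3%, interval 59.8 to 70.5%), and ranks 401 to 928 held 448, with 335 outer (74.8%, interval 70.5 to 78.7%). In density, the outer parts held 3.82 of the stronger peaks per Mb and the central parts 4.05, while for the weaker peaks the values were 6.12 and 4.13 per Mb. The same split of the replicate 2 list gave 65% (interval 59.5 to 70.2%) and 74.9% (interval 70.5 to 78.9%). The rank at which the list was divided was chosen after the values were seen. The median rank was 499.75 for outer peaks (interval from order statistics 470.5 to 541) and 415 for central peaks (349 to 493). The better-ranked 464 peaks of the list took in 246 outer peaks, 45.2% of them (interval 41 to 49.5%), and 123 of the 224 central peaks (54.9%, interval 48.1 to 61.5%). The intervals of the strong and the weak class meet at 70.5%, and neighbouring peaks are not independent, so the difference is a description of this list.

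**Figure D1:**
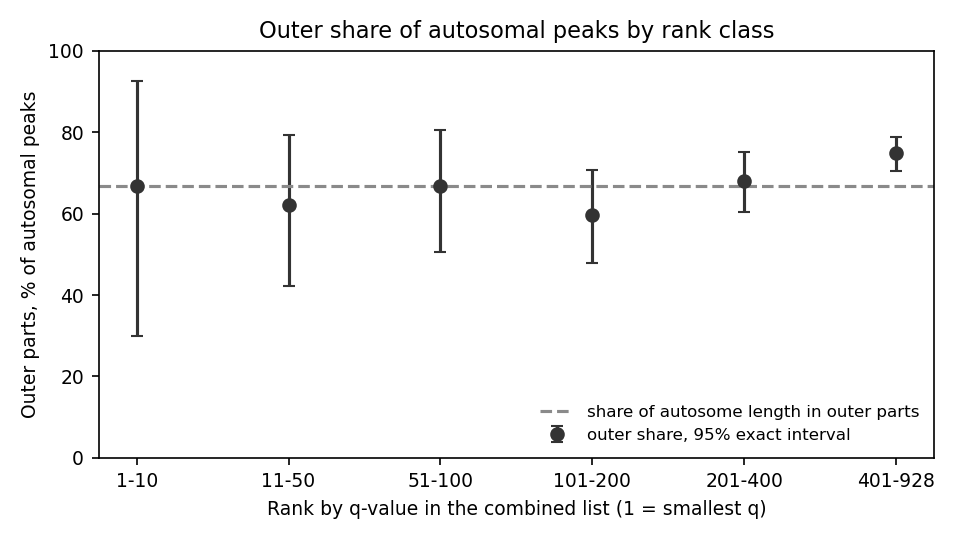
Points give the share of autosomal combined peaks that lay in the outer parts (y axis, percent) in 6 classes of rank by q-value (x axis), with exact 95% intervals; the dashed line marks the share of autosome length, 66.7%. The class of ranks 401 to 928 sits at 74.8%, and the classes above it between 59.7 and 68.1%.

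Outer peaks were narrower than central ones in the median, though not at the upper quartile. Their median width was 200 bp (interval 190 to 224 bp) against 271 bp (238 to 289 bp) in the central parts, and it was below the median of the chromosome's own centre in 10 of 10 arms, although by as little as 270 against 271 bp in the right arm of IV. The replicate 2 list gave medians of 200 and 269 bp, and again 10 of 10 arms lay below. The lower and upper quartiles of width were 96 and 370 bp for outer peaks and 152.25 and 363.25 bp for central peaks. Very short calls took a larger share of the outer list. Of the outer peaks, 91 were under 50 bp (16.7%, interval 13.7 to 20.1%), against 23 of 224 central peaks (10.3%, interval 6.62 to 15%), with 13.3% over all combined peaks. Counting peaks of at least 50 bp alone, the medians were 250 bp outer and 288 bp central, and 8 of 10 arms lay below their centre. The short outer peaks had a median rank of 647, 17 of the 91 were among the better-ranked 464, and 82 (90.1%) overlapped a replicate 2 peak. The 23 short central peaks had a median rank of 700, with 5 among the 464 and 17 (73.9%) overlapping a replicate 2 peak. Outer peaks covered 147164 bp in all. Width and rank went together within the outer parts, and both come from the same peak call. The Spearman rho between width and −log10 q was 0.547 over 544 peaks of 1 list, given as a description. Whether outer peaks were narrower than central peaks of like rank was not tested.

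**Figure D2:**
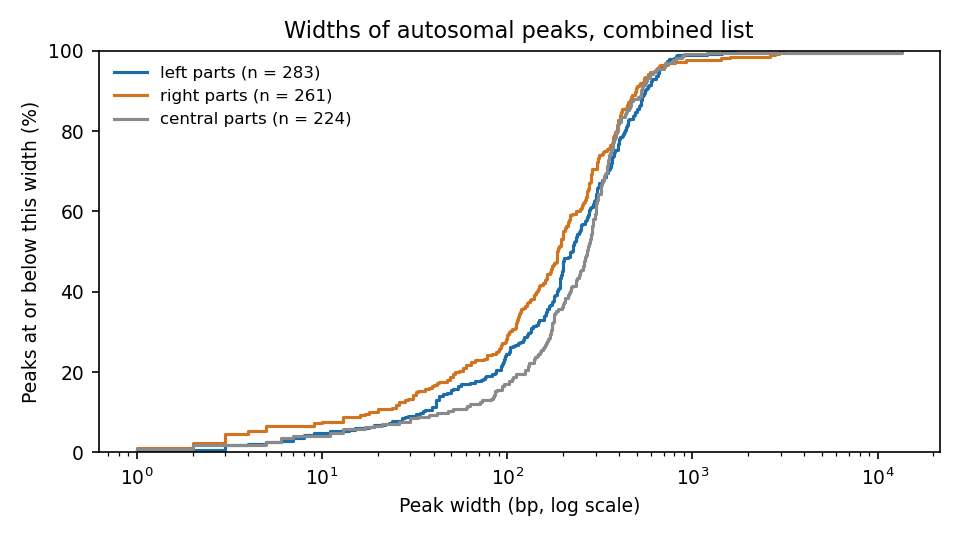
Curves give the percentage of combined peaks (y axis) at or below a width in bp (x axis, log scale) for the left, right and central parts of the autosomes. The curves of the left arms (median 225 bp) and the right arms (median 186 bp) pass 50% at smaller widths than that of the central parts (median 271 bp).

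Very wide calls were few in the outer parts, and mostly on V. Over 1000 bp wide were 9 outer peaks (1.65%, with 1.4% over all combined peaks), 3 in left and 6 in right arms. Those in the left arms lay on IV from 2823544 to 2825244 (1701 bp, rank 255), on V from 5284005 to 5285456 (1452 bp, rank 14) and on III from 1924505 to 1925706 (1202 bp, rank 21). In the right arms, V held 4: the peak from 19427929 to 19430717 (2789 bp, rank 4) and 3 neighbours between 18710760 and 18724670, which were 1421, 2624 and 2919 bp wide at ranks 871, 184 and 113. The remaining pair was the peak at the last bases reached on III, from 13778103 to 13781227 (3125 bp, rank 419), and the one on IV from 14032720 to 14034311 (1592 bp, rank 7). The ranks of these 9 ran from 4 to 871, and 3 of them were called in replicate 1: those on V starting at 5284005 and 19427929 and that on IV starting at 14032720.

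Left and right arms held similar numbers in all, but the balance differed between chromosomes. The left share of outer peaks was 52% (283 of 544, interval 47.7 to 56.3%) in the combined list and 51.4% (274 of 533, interval 47.1 to 55.7%) in replicate 2. Replicate 1, with 19 of 26 peaks on the left, gave 73.1% (interval 52.2 to 88.4%). On I the left arm held 85 peaks and the right arm 51, and the left arm of IV held 53 against 34. The order was the other way on II, with 38 left and 65 right, and on III, with 45 and 55; on V the arms held 62 and 56. The intervals of the left share excluded an even division on I (62.5%, interval 53.8 to 70.6%) and II (36.9%, interval 27.6 to 47%) but not on III, IV or V. The small excess on the left was not kept throughout: the pooled left share was 48.5% without chromosome I, 50.3% without chromosome IV, and 50% with each run counted once.

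By density, the left arm of I stood highest among the 10 arms, with 17.1 peaks per Mb in the combined list and 15.5 per Mb in replicate 2. Next came the right arms of II (12.8 and 12.4 per Mb), III (12 in both) and I (10.2 and 11). The right arm of IV was lowest, with 5.91 and 5.39 per Mb, followed by the left arm of II with 7.47 per Mb in both lists. In between lay the left arms of III (9.8 per Mb in the combined list), IV (9.22) and V (8.91) and the right arm of V (8.05). In the combined list, right arms were denser than their own centre on I, II, III and IV, left arms on I and IV only. In replicate 2 the left arm of V was also above its centre (9.05 against 8.91 per Mb), and that of II equalled its centre (7.47 per Mb). Replicate 1 had too few peaks for densities; its left arm of III held 7 peaks, and no other arm held more than 4.

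**Figure D3:**
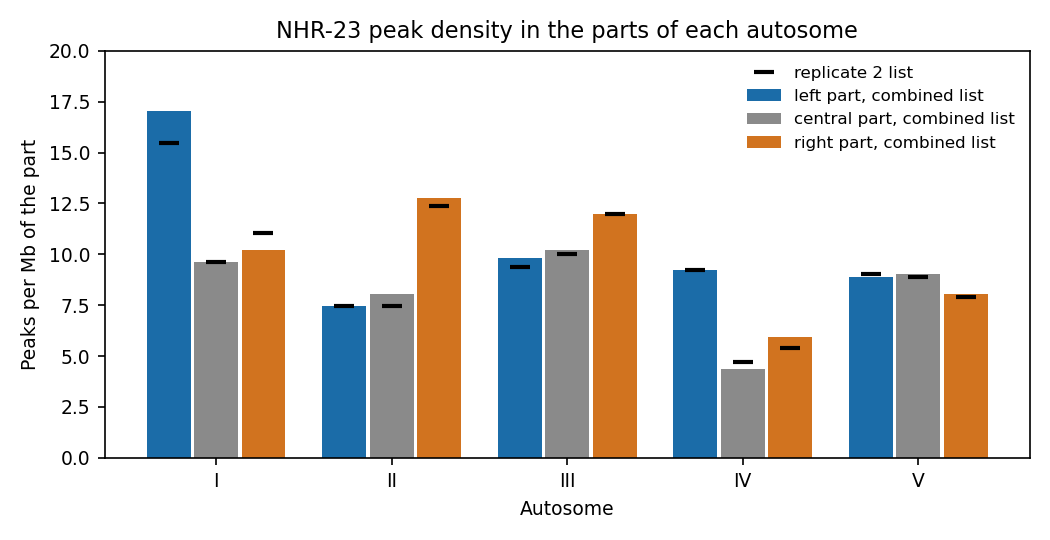
Bars give combined peaks per Mb (y axis) in the left, central and right parts of each autosome (x axis), and black dashes the replicate 2 list. The left arm of I reaches 17.1 per Mb, the centre of IV 4.35 per Mb, and on V the 3 parts lie between 8.05 and 9.05 per Mb.

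The first 100 ranks, though not every class of strong peaks, lay mostly in left arms. Among ranks 1 to 100 there were 52 outer peaks, 37 in left and 15 in right arms (left share 71.2%, interval 56.9 to 82.9%), while ranks 401 to 928 were near even, with 165 left and 170 right. Over ranks 1 to 400 the left share was 56.5% (118 left and 91 right, interval 49.4 to 63.3%) and among the better-ranked 464 it was 54.5% (interval 48 to 60.8%), both of which take in an even division. Ranks 1 to 10 went the other way, with 2 left and 4 right. Among ranks 1 to 100, chromosome V held 17 left against 3 right peaks and IV 9 against 2. On I the counts were 5 and 3, on III 5 and 3, and on II 1 and 4. Without V there were 20 left and 12 right peaks, a left share of 62.5% whose interval, 43.7 to 78.9%, takes in an even division. The 3 right-arm peaks of V lay at ranks 2, 4 and 6 of the whole list, and the next peak of that arm came after rank 100. By median rank the left arm of V stood best, at 355.5, and the right arm of IV last, at 581.75. This side difference was seen in the values and then counted, so it is a description.

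The strongest peak of each arm differed widely in q-value. On V it was the peak from 14506668 to 14507590 in the right arm (923 bp, q = 1.19e-45, rank 2) and the peak from 5425001 to 5425437 in the left arm (437 bp, q = 3.78e-19, rank 10). On IV the left arm was led by the peak from 1911171 to 1911807 (q = 4.13e-31, rank 5) and the right arm by that from 14032720 to 14034311 (q = 3.64e-27, rank 7). Both arms of V and of IV thus had a peak among the first 10 of the whole list. On III the left arm was led by the peak from 3797112 to 3797760 (q = 2.05e-18, rank 11) and the right arm by that from 11913002 to 11913499 (q = 3.9e-11, rank 57). On I the leading peaks lay close to the ends, from 41964 to 42514 on the left (q = 1.61e-13, rank 31) and from 14907942 to 14908265 on the right (q = 7.52e-16, rank 17). On II they ran from 13638467 to 13638865 on the right (q = 2.62e-15, rank 19) and from 512087 to 512428 on the left (q = 1.08e-09, rank 99). No arm was without a peak in the first 100, and the left arm of II had only that 1. Of these 10 leading peaks, 5 were called in replicate 1, both on IV, both on V and the left one on III.

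Pooled over the autosomes, peaks were densest within 2 Mb of the span ends. The second Mb stayed above the steps farther in whichever chromosome was left out, while the first did not without chromosome I. Pooled over the 10 ends, there were 110 peaks in the first Mb (11 per Mb), 133 in the second (13.3 per Mb), 87 in the third (8.7 per Mb) and 85 in the fourth (8.5 per Mb). From there to the boundaries with the centres, 129 peaks lay in 14.8 Mb (8.74 per Mb), close to the 8.18 per Mb of the central parts. The replicate 2 list gave 10.4, 13.6, 8.6 and 7.9 per Mb for the first 4 steps. Most of the rise in the second Mb was on the left, with 15.8 peaks per Mb there against 10.8 on the right. All 5 left arms held 11 to 20 peaks in that Mb: 20 on I, 20 on II, 11 on III, 16 on IV and 12 on V. It was the fullest left step on II and IV only. On I and V the first Mb held more, with 22 and 14 peaks, and on III the third Mb held 13. On the right the second Mb held 20 on II and 16 on III but 3 on IV and 5 on I. The first Mb was shaped by chromosome I, which held 22 peaks at each end and so 44 of the 110; without it the share of outer peaks within 1 Mb of an end fell from 20.2% to 16.2%. The density there was then 8.25 per Mb, between the 7.38 and 7.5 per Mb of the next steps (2 to 3 and 3 to 4 Mb) and the 8.99 per Mb farther in, and near the 7.86 per Mb of the other 4 centres. The second Mb stood at 13.5 per Mb without chromosome I and at 11.6 per Mb or more without any other chromosome. The lowest value came without II, which held 40 of the 133 peaks. The second Mb was then no denser than the first, at 11.75 per Mb, but still above the next steps, at 9 and 9.38 per Mb.

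**Figure D4:**
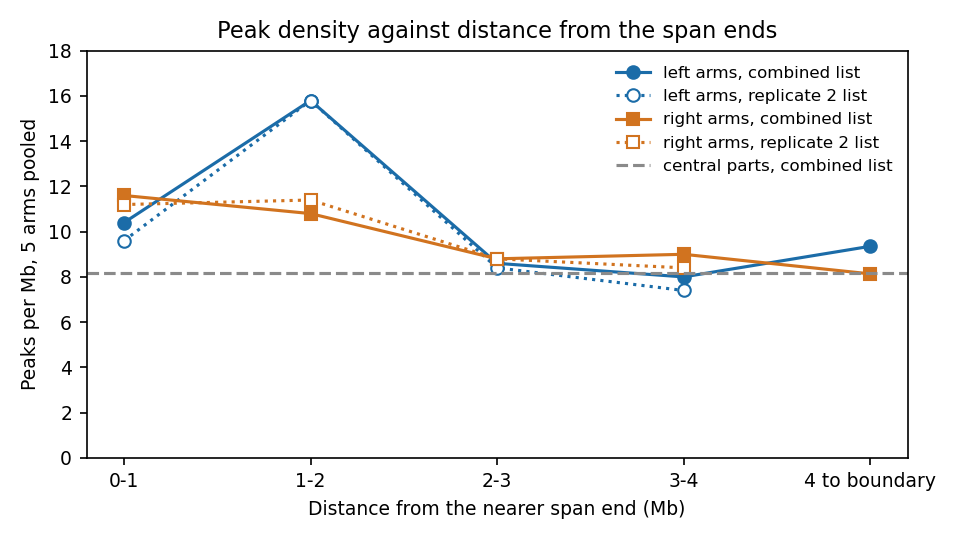
Lines give peaks per Mb (y axis) pooled over 5 left or 5 right arms in steps of distance from the nearer span end (x axis, Mb), with filled symbols for the combined list and open symbols for replicate 2; the dashed line is the density of the central parts. The left arms reach 15.8 per Mb between 1 and 2 Mb, and both sides lie between 8 and 9.35 per Mb in the combined list beyond 2 Mb.

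The distances on the right are measured from the last base reached by any list, not from the chromosome's own end, so each right arm has a peak at its end by construction. These last peaks lay on I from 14948510 to 14948878 (rank 33), on II from 15268297 to 15268343 (rank 298), on III from 13778103 to 13781227 (rank 419), on IV from 17249801 to 17250000 (rank 904) and on V from 20881208 to 20881320 (rank 553.5). The left ends start at base 1 and are free of this. There the first peaks were on II from 131 to 500 (rank 363), on I from 3757 to 3949 (rank 436), on V from 8695 to 9194 (rank 88), on III from 349568 to 350248 (rank 54) and on IV from 390395 to 390558 (rank 912). Thus 3 of the 5 left arms had a peak in the first 10 kb, while those of III and IV had none in the first 100 kb. Of these 10 end peaks, those on the left of II and on the right of I were also called in replicate 1, and all 10 overlapped a replicate 2 peak.

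Steps of 500 kb counted inward from the ends brought out local concentrations. The 104 steps that fit in the arms held a median of 4 peaks (quartiles 3 and 7). Of these, 11 steps held 10 or more, 128 peaks in all, and 4 held none. The fullest was the last 500 kb on I, with 15 peaks, 14 of them within 250 kb of the end, between 14720260 and 14948878. Of those 14, 11 had a neighbour less than 10 kb away, 8 were among the better-ranked 464, 14 overlapped a replicate 2 peak and 1 a replicate 1 peak. The left arm of I had 4 of the 11 full steps, at 0 to 500, 500 to 1000, 1500 to 2000 and 2500 to 3000 kb, with 12, 10, 13 and 13 peaks. Others near the left ends were on II from 1000 to 1500 kb (12 peaks) and on IV from 1500 to 2000 kb (11 peaks).

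The 4 empty steps belonged to the longest stretches without a combined peak in any arm. On V no peak was called from 1868787 to 3315390 (1447 kb), and on II none from 2889426 to 4040991 (1152 kb), both in left arms. Next came the left arm of III from 659644 to 1418831 (759 kb) and the right arm of V from 17951646 to 18656701 (705 kb). Within arms, the median gap between neighbouring peaks was 55.2 kb on the left and 63.6 kb on the right, against 65.3 kb in the centres. The stretch on III was empty in replicate 2 and the combined list but not in replicate 1, which had 2 peaks there, from 931226 to 931823 and from 1299607 to 1300472.

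Peaks in the outer parts lay in short runs about as often as peaks of the whole list. Joining peaks with less than 10 kb between them, 203 outer peaks stood in a run (37.3%, interval 33.2 to 41.5%), with 36.4% over all combined peaks and 33.9% in the central parts (interval 27.8 to 40.5%). The share was 41.7% in left arms (interval 35.9 to 47.7%) and 32.6% in right arms (interval 26.9 to 38.6%). Peaks in runs ranked better than those that stood alone, with median ranks of 409 and 549.5, and were wider, with medians of 301 and 179 bp. In the central parts the corresponding values were 320.5 and 462.25 for rank and 301 and 237 bp for width. In replicate 2 the share was 35.8% (interval 31.8 to 40.1%). In replicate 1 no outer peak had a neighbour within 10 kb (0 of 26, interval 0 to 13.2%). That list had only 0.475 outer peaks per Mb, too sparse for its share to be compared with the others.

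Runs of 4 or more peaks numbered 10 in the outer parts and took in 46 peaks (8.46%, interval 6.26 to 11.1%), 6 runs on the left and 4 on the right. Over all combined peaks the share was 8.3%, and in the central parts 6 such runs held 27 peaks (12.1%, interval 8.1 to 17.1%), so the order of outer and central parts was the reverse of that for all runs, and the intervals overlap. In the left arms they lay on I from 524358 to 537090 (5 peaks, best rank 234) and from 1832673 to 1837351 (4 peaks, best rank 135), on II from 1229264 to 1247324 (5 peaks, best rank 207), on III from 1921031 to 1927168 (5 peaks, best rank 21), and on V from 792861 to 806041 (5 peaks, best rank 45) and from 4499466 to 4508362 (5 peaks, best rank 47). Those in the right arms lay on I from 14733000 to 14741438 and from 14755256 to 14765252 (4 peaks each, best ranks 154 and 268), on II from 10543026 to 10563634 (4 peaks, best rank 191) and on III from 12598171 to 12617202 (5 peaks, best rank 130). Chromosome IV had none. Each run mixed strong and weak calls: on III from 1921031 the ranks ran from 21 to 747.5, and on I from 1832673 from 135 to 909. Only the run on II from 1229264 included a peak called in replicate 1, although 44 of the 46 peaks in runs of this size overlapped a replicate 2 peak.

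Most outer peaks overlapped a replicate 2 peak and few a replicate 1 peak, at shares close to those of the whole list. A replicate 2 peak overlapped 514 of the 544 outer peaks by at least 1 bp (94.5%, interval 92.2 to 96.2%), with 95.2% over all combined peaks. A replicate 1 peak overlapped 22 (4.04%, interval 2.55 to 6.06%), with 4.42% over all combined peaks, and these 22 were also in replicate 2. The central parts gave 94.2% (interval 90.3 to 96.9%) and 4.46% (interval 2.16 to 8.06%), with intervals that overlap those of the outer peaks. By side, 15 of 283 left peaks (5.3%, interval 3 to 8.59%) and 7 of 261 right peaks (2.68%, interval 1.08 to 5.45%) were in replicate 1, intervals that overlap. Of the 514 pairs with replicate 2, 403 (78.4%) had the same q-value in both lists in every digit, and 345 the same start and end. Identical q-values made up 78% of such pairs over all combined peaks (689 of 883) and 73% in the central parts (154 of 211). With so many calls the same in both lists, overlap with replicate 2 is not independent support for a combined peak.

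Support from replicate 1 was concentrated at the top of the list, in outer and central parts alike. All 6 outer peaks among the first 10 had it, 7 of the 18 at ranks 11 to 50, 1 of 28 at ranks 51 to 100, 3 of 46 at ranks 101 to 200, 4 of 111 at ranks 201 to 400 and 1 of 335 from rank 401 on. Central peaks in the same classes had it in 3 of 3, 2 of 11, 0 of 14, 3 of 31, 1 of 52 and 1 of 113. Outer peaks with that support had a median rank of 33.5 and were 460 bp wide in the median, against 515 and 195.5 bp for the other outer peaks. The central values were 61 and 461.5 bp with support, against 429.5 and 262 bp without.

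The 7 right-arm regions of both replicates included the strongest. On V from 14506668 the q-value was 3.62e-16 in replicate 1 and 1.19e-45 in replicate 2. From 19427929 it was 1.21e-11 and 2.42e-32, and from 15660945 it was 4.82e-11 and 9.11e-29. All 3 were strong in both libraries, at ranks 3, 4 and 5 of replicate 1. On IV from 14032720 the values were 1.5e-05 and 3.64e-27, so a region at rank 7 of replicate 2 stood at rank 42 of 48 in replicate 1. The last peak on I, from 14948510, had 2.67e-07 in replicate 1 and 2.96e-13 in replicate 2. The peak on III from 10814465 (1.26e-06 and 6.72e-09) and that on II from 13289928 (7.01e-06 and 8.87e-07) had the largest q-values of the 7 in replicate 2, at ranks 127 and 277, and stood at ranks 21 and 34 of replicate 1.

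Of the 15 left-arm regions, the strongest lay on V and IV. On V from 5284005 the q-value was 2.46e-20 in replicate 1, at rank 2, and 6.41e-17 in replicate 2. This was the only outer region with the smaller q-value in replicate 1; in the other 21 of 22 it was smaller in replicate 2. On IV from 1911171 the values were 1.02e-10 and 4.13e-31, and from 3439342 they were 2.86e-07 and 1.7e-14. On IV from 1199818 they were 3.64e-07 and 8.42e-08, close together. The others on V were the peaks from 5425001 (2.01e-06 and 3.78e-19), from 4628455 (6.33e-06 and 6.36e-14) and from 726166 (5.55e-06 and 1.09e-08). All 4 on V lay in a rank range of 10 to 66 in the combined list.

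The left arms of III, I and II supplied the other 8. On III the peaks from 3797112 (2.99e-07 in replicate 1 and 3.64e-18 in replicate 2) and 3866874 (8.71e-06 and 5.56e-13) were at ranks 11 and 37 of replicate 2, and those from 2632925 (1.96e-05 and 1.2e-06) and 2745359 (1.47e-05 and 3.45e-06) were near the end of the replicate 1 list, at ranks 48 and 41 of 48, but at ranks 290 and 362 of 918 in replicate 2. On I the peak from 3709062 had 1.22e-05 and 1.01e-13. The peak on I from 2593895 to 2593916, only 22 bp wide, had 9.65e-06 and 5.12e-09 and was the sole short peak under 50 bp with replicate 1 support. On II the peaks from 1239457 (1.41e-05 and 1.54e-06) and from 131 (1.33e-05 and 3.79e-06) were at ranks 40 and 39 of replicate 1 and at ranks 303 and 376 of replicate 2. Across the 22 outer regions the q-values differed by a median of 6.58 on the log10 scale, and the replicate 2 interval was the wider in 17, with a median width ratio of 1.16. In the 10 central regions the replicate 2 interval was wider in all 10, with a median ratio of 1.36.

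**Figure D5:**
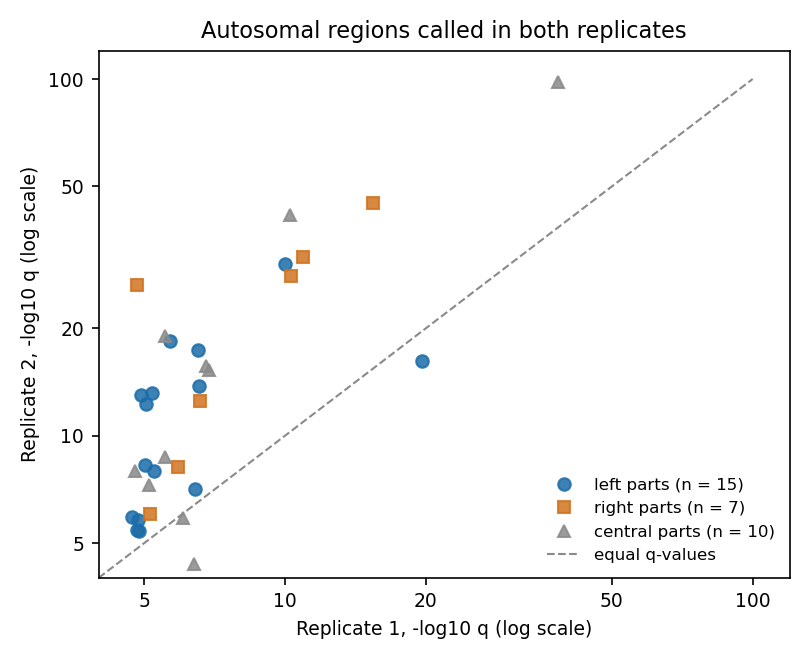
Each point is an autosomal region called in both replicates, with −log10 q in replicate 1 (x axis) and in replicate 2 (y axis), both on log scales, for the left, right and central parts; the dashed line marks equal values. Of the 22 outer regions, 21 lie above the line, and the left-arm region on V from 5284005 lies below it.

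Replicate 1 called 4 outer peaks that replicate 2 did not, all in left arms and none overlapping a peak of the combined list. They lay on III from 1299607 to 1300472 (q = 1.41e-07, rank 11 of 48), from 931226 to 931823 (q = 2.52e-07, rank 13) and from 4016676 to 4016726 (q = 1.7e-05, rank 45), and on I from 933314 to 933711 (q = 2.47e-06, rank 28). The nearest replicate 2 peak lay 118360, 271583, 72390 and 45398 bp away. The left arm of III thus had 3 of its 7 replicate 1 peaks missing from replicate 2, and the other arms 1 of 19. The peak from 4016676 overlapped no combined peak but lay close beside one, on III from 4016621 to 4016635 (rank 443.5).

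In the other direction, 30 outer peaks of the combined list overlapped no peak of either replicate list (5.51%, interval 3.75 to 7.78%). That is close to the 4.85% over all combined peaks and the 5.8% in the central parts. The peak on III from 4016621, close beside a replicate 1 peak, is counted among the 30. These 30 peaks were weak and short: the best stood at rank 388 and the median at rank 785, and the median width was 98.5 bp. The 13 central peaks of this kind were also weak and short, at a median of 868.5 in rank and 73 bp in width. The left arm of I held 9 of the 30 outer peaks and the left arm of III 6, while the left arms of II and IV held none. Replicate 2 had 19 outer peaks that the combined list left out, 9 left and 10 right, at a median rank of 762 in that list and with widths around a median of 71 bp.

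Few peaks lay close to a boundary. The nearest peaks were those beside the right boundary of I, with midpoints 3.6 kb on the outer side (from 9969368, rank 409) and 3.16 kb on the central side (from 9962640, rank 129). Elsewhere the nearest outer midpoint lay between 49.7 kb (I, left) and 243 kb (IV, left) from its boundary, and the nearest central one between 8.84 kb (IV, left) and 330 kb (I, left). No outer peak spanned a boundary, so taking whole intervals in place of midpoints gave the same 544.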

How the data were processed

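The data were 3 peak lists, 1 for each of the 2 ChIP samples and a combined one; for the 2 inputs no list was analysed here. Per the file headers, peaks are PeakSeq calls on WormBase WS180. The deposited value of each peak is the authors' q-value. The aligner, the caller's settings, the read depth and how the combined list was made are not stated in the sources used here. Groups were taken from the sample titles.

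Spans, their 3 equal parts, overlaps (at least 1 bp), runs (less than 10 kb between peaks) and distances were computed with Python 3.11.15 (scipy 1.17.1, pandas 2.3.3, numpy 2.4.6), and plotted with matplotlib 3.10.9. Counting was tested on simulated intervals. No difference was tested, since the 2 replicate lists were of very unequal length (48 and 918 peaks) and peaks of 1 list are not replicates; shares carry exact binomial intervals and medians order-statistic intervals. Named regions were the best of each arm, those in replicate 1, those over 1000 bp, runs of 4 or more, the nearest to each span end and those beside the boundaries; other named stretches and rank classes were picked later, with the values in view. The members, lists and rules were chosen with earlier results of these data known.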

Additional observations from a re-analysis of the deposited data

How the results depend on the processing

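No paired analysis of ChIP and input samples was made, and no input peak lists were analysed. A share or median counts here as moved when it left its own 95% interval; 8 results were recomputed with 45 changes of processing listed at the outset and 40 chosen after seeing the data, which leave out each autosome in turn. Among the better-ranked 464 peaks the outer share was 66.7% in place of 70.8%. Replicate 1 support was 8.54% in place of 4.04%, and replicate 2 overlap 98.8% in place of 94.5%. The median width there was 332.5 bp in place of 200 bp. The share in runs was 29.3% in place of 37.3%, but runs were rebuilt from those 464 peaks, and a shorter list leaves fewer neighbours. With the runs of the full list, 54.7% of outer peaks in runs were among the 464, against 39.6% of outer peaks that stood alone. With peaks of at least 50 bp alone, the share of outer peaks in those 464 was 50.6% in place of 45.2% and the median width 250 bp. The share in runs was 28.5% with runs under 5 kb and 48.7% under 20 kb, and 44.7% of outer peaks lay within 2 Mb of an end in place of 20.2% within 1 Mb; wider limits take in more peaks by construction. Leaving out a replicate, so that the other's list stands in for the combined one, gave ranges of 51.4 to 73.1% for the left share, 0 to 35.8% for the share in runs and 200 to 350.5 bp for the median width, the values far from the combined list all coming without replicate 2, from 26 peaks; the outer share stayed between 70.3 and 70.7% and the share within 1 Mb of an end between 19.2 and 19.5%. Without chromosome I the share within 1 Mb of an end was 16.2%, the only 1 of the 40 added values that moved. For the other moved values the cause was not tested. Absence from the 48 peaks of replicate 1 shows only that a region was not called there.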
